A study of Mus musculus with 2 samples.

Results

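The isolated ERRα windows were the sites of an ERRα binding map that had no other site near them. They were selected on their positions alone: an autosomal window was a member when its start lay more than 500 kb from the start of every other window on its chromosome. Of 3183 windows on the 19 autosomes, 560 met the rule (17.6%, exact 95% binomial interval 16.3% to 18.96%), and the other 2623 had a neighbour within that distance. The whole list held 3225 windows, each 200 bp wide, and the windows of the sex chromosomes were not considered. Intervals here and below are Clopper-Pearson intervals that cover counting error only, and windows of 1 list are not independent of each other.

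The map came from C2C12 cells, mouse myoblasts that stop dividing and form muscle fibre-like myotubes in low serum. Myotubes were obtained by 72 h in 2% horse serum and were then infected for 48 h with an adenovirus that expressed flag-tagged PGC-1α. Chromatin from these cells was precipitated with a rabbit monoclonal antibody against ERRα (1 library, labelled IP_ERRa), and whole-cell extract DNA of C2C12 myotubes (1 library, labelled WCE) served as input. The windows therefore describe a cell line with PGC-1α over-expressed in both libraries, with no control lacking the virus and no repeat of either library, so no difference below has a replicate check. Read depth is unknown and the list gives no height or score, so a window without neighbours in the list cannot be told from one whose neighbours were missed at the depth used. No test was run, and members and other windows are compared by counts, shares and medians.

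ERRα is an orphan nuclear receptor that binds a short response element as a monomer or dimer and activates genes of oxidative phosphorylation, the citric acid cycle and fatty acid oxidation. PGC-1α is a coactivator without a DNA-binding domain of its own. It is recruited by ERRα and other factors and is induced in muscle by exercise. SP1, named in the title of the study, is a zinc-finger factor that binds GC boxes, which are common near the start sites of widely expressed genes. Nuclear receptors bind both close to start sites and at distant enhancers, and regulatory sites of one gene are often grouped. A window with no other window over a long distance is ungrouped within this list, and its place relative to genes was not analysed here.

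The distance from each autosomal window to its nearest neighbour ran without a visible break through the 500 kb limit. A neighbour within 10 kb was found for 800 windows, one at 10 to 100 kb for 821 and one at 100 to 500 kb for 1002. Beyond the limit, 323 members had their nearest neighbour between 500 kb and 1 Mb, 161 between 1 and 2 Mb, 45 between 2 and 3 Mb, 29 between 3 and 5 Mb, and 2 at more than 5 Mb. Every neighbour was thus more than 1 Mb away for 237 members, or 42.3% of them. The median nearest distance of the members was 880 kb (quartiles 657 and 1429 kb). These values chose the members and are given as a description.

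**Figure D1:**
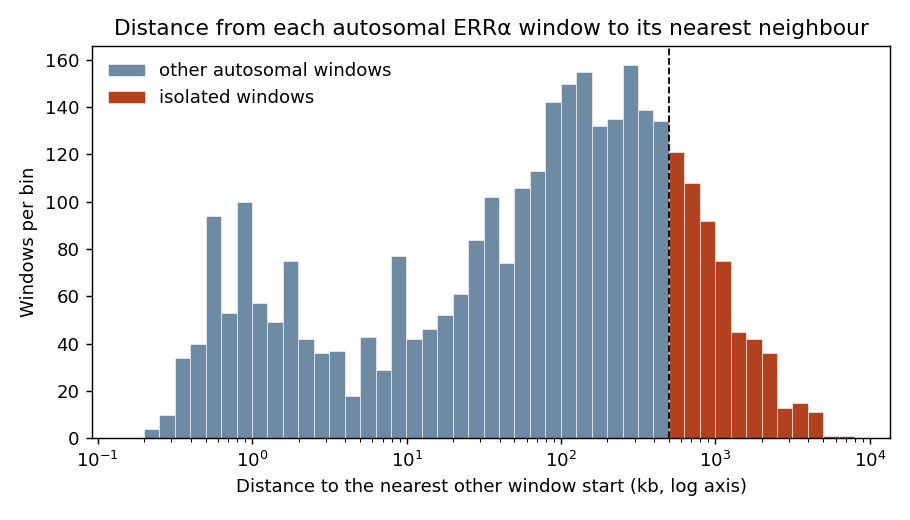
Number of autosomal windows (vertical axis) by distance to the nearest other window start (horizontal axis, kb on a log scale); the dashed line marks 500 kb, with the 560 isolated windows to its right. The last bin before the line holds 134 windows and the first after it 121, and the farthest member lies 7100 kb from its neighbour.

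The members closest to the limit showed how little separates the classes there. Just inside it were the window at chr7:31912101-31912300, whose nearest neighbour was 501 kb away, and a pair of windows on chromosome 18, at chr18:61797751-61797950 and chr18:62299951-62300150, which were each other's nearest neighbour at 502 kb. Just outside were the last window of chromosome 7, at chr7:150734651-150734850 with a neighbour at 498.8 kb, and the windows at chr3:67840176-67840375 and chr3:68338751-68338950, which lay 498.6 kb apart. Among the other windows, 576 had exactly 1 window within 500 kb, and 2047 had 2 or more.

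At the other extreme, the farthest-set member was the first window of chromosome 9, at chr9:3464951-3465150, with its only neighbour 7.10 Mb away. This window had no neighbour on the centromere side to be measured against. The most remote member with neighbours on both sides was at chr4:73785351-73785550, which had 6.01 Mb of window-free sequence on the lower side and 8.01 Mb on the higher side. A second window of the same chromosome, at chr4:19502151-19502350, followed with 7.44 and 4.90 Mb. Chromosome 4 carried 227 windows, of which 21 were isolated, so 2 of its few members were among the 3 most remote.

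The rest of the 10 most remote members lay on chromosomes 1, 12, 14 and 16. The window at chr12:40924376-40924575 had 4.82 Mb on the lower side and 12.0 Mb on the higher side. On chromosome 1, the window at chr1:69706551-69706750 was nearly centred in its empty stretch, with 4.86 and 4.73 Mb, while those at chr1:99666551-99666750 (4.29 and 8.15 Mb) and chr1:144485101-144485300 (6.59 and 4.22 Mb) were not. On chromosome 14, the windows at chr14:87815726-87815925 and chr14:92338576-92338775 were consecutive and lay 4.52 Mb apart, with 4.92 and 7.51 Mb on their outer sides. The window at chr16:50754451-50754650 had 4.29 and 5.11 Mb. Positions are on mm9, counted from 1. Whether any of these windows lies in a gene was not analysed here, since the annotation at hand is of another build.

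Most members sat off-centre in their empty stretch. For the 544 members with a neighbour on both sides, the farther neighbour was a median of 2242 kb away (quartiles 1341 and 3478 kb), and the ratio of the farther to the nearer distance had a median of 1.93 (quartiles 1.38 and 3.15). The farther distance was under 1.5 times the nearer one in 168 members and over 3 times in 149. The nearer neighbour was on the centromere side in 279 members and on the telomere side in 265. Both neighbours were more than 1 Mb away in 222 members, one of them in 246, and neither in 76. The largest one-sided distance belonged to the window at chr16:58654051-58654250, with 17.7 Mb to its next neighbour and 985 kb to the one before it.

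**Figure D2:**
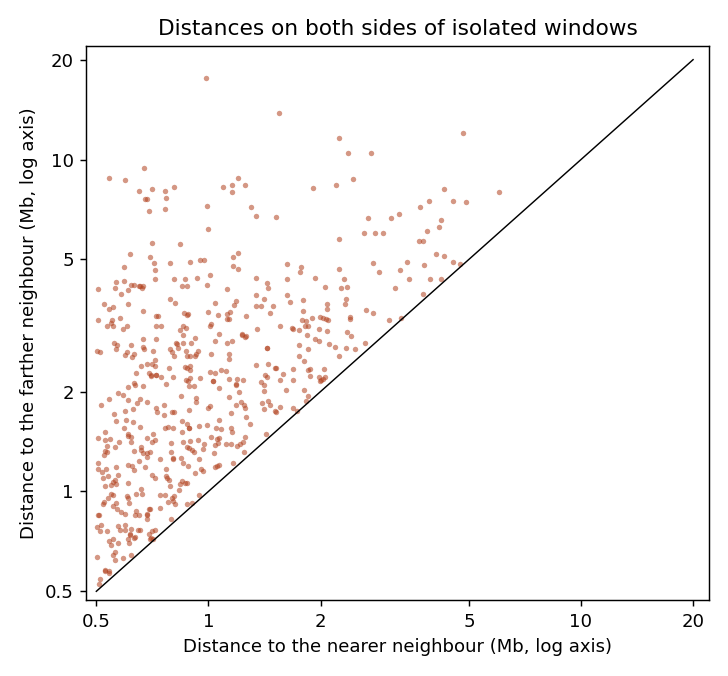
Distance to the nearer neighbour (horizontal axis) and to the farther neighbour (vertical axis), both in Mb on log scales, for the 544 isolated windows with a neighbour on both sides; the line marks equal distances. Points spread far above the line, with a median ratio of 1.93.

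Isolated windows were few but stood in much of the genome that the map spans. The stretch of sequence nearer to a given window than to any other, measured between the first and last window of each chromosome, had a median of 1.63 Mb for members and 268 kb for the other windows. Summed, the members accounted for 1103 Mb of the 2384 Mb spanned by autosomal windows, or 46.3%, although they made up 17.6% of the windows and covered 112 kb themselves. A large stretch per member follows from the rule, so the sum is a description of how the list is laid out.

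The wide empty stretches of the map were mostly, but not always, bordered by members. Of the 343 distances of more than 2 Mb between consecutive windows, 109 had a member at both ends, 167 at one end and 67 at neither. Among the 55 distances over 5 Mb the numbers were 15, 29 and 11. A window at the edge of an empty stretch can have a close neighbour on its other side, and 11 of the widest stretches were of that kind on both edges.

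All 19 autosomes carried isolated windows, in numbers from 16 to 49. Chromosome 1 had the most, with 49 of its 194 windows, and chromosomes 8, 15, 16 and 19 had 16 each. As a share of the windows of a chromosome, members were most frequent on chromosome 9, at 37 of 112 (33.0%, 24.4% to 42.6%), and on chromosome 13, at 41 of 137 (29.9%, 22.4% to 38.3%). They were least frequent on chromosome 8, at 16 of 250 (6.40%, 3.70% to 10.2%), and on chromosome 15, at 16 of 214 (7.48%, 4.33% to 11.9%). The intervals of the first pair do not overlap those of the second. Part of the low share on chromosome 8 lies in its denominator, which includes a single run of 74 windows.

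The isolated share tended to be lower on chromosomes where windows were dense. More windows in the same span leave less room between them, so such a fall is partly built in. Density alone does not fix the share, which also depends on how the windows are spaced. Over the 19 autosomes, the share and the number of windows per Mb of span had a Pearson r of -0.89 and a Spearman rho of -0.90. Both measures contain the window count of the chromosome and come from the same library, so these coefficients are a description. Some chromosomes of like density are set side by side here. Chromosome 2 had 1.45 windows per Mb and 17.9% isolated (13.4% to 23.1%), while chromosome 4 had 1.51 windows per Mb and 9.25% isolated (5.82% to 13.8%). Chromosome 13, at 1.19 windows per Mb, had 29.9% isolated, while chromosome 5, at 1.16, had 19.8% (14.1% to 26.5%) and chromosome 6, also at 1.19, had 21.4% (15.5% to 28.3%). The intervals overlap in each of these comparisons, for chromosomes 2 and 4 only between 13.4% and 13.8%. Overlap of intervals does not decide whether shares differ, and a difference at like density was not tested.

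**Figure D3:**
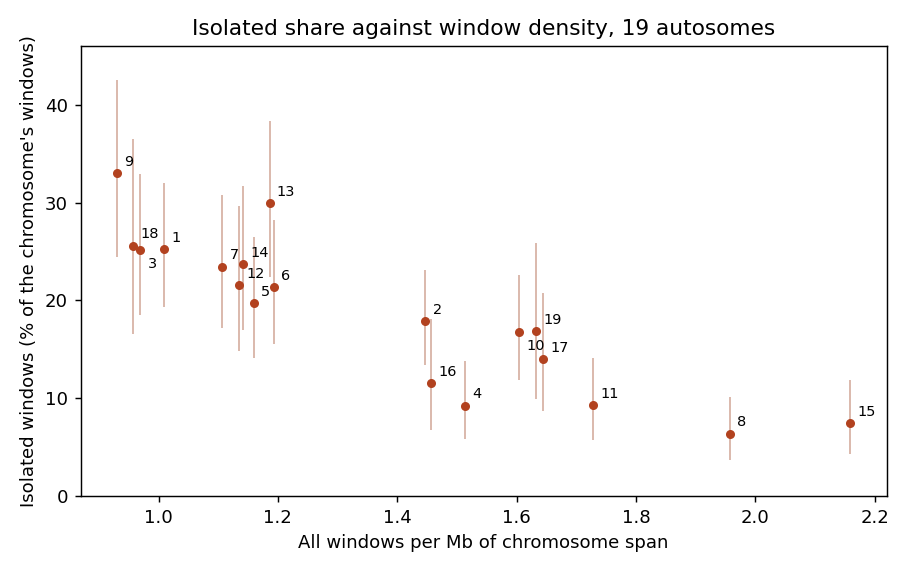
Isolated windows as a percentage of all windows of a chromosome (vertical axis, bars are exact 95% binomial intervals) against windows per Mb between its first and last window (horizontal axis); each point is an autosome, labelled by number. Chromosome 9 is highest at 33.0% and chromosome 8 lowest at 6.40%.

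Counted per length, members ranged from 0.125 per Mb on chromosome 8 to 0.355 per Mb on chromosome 13, with a median chromosome at 0.245. The other windows ranged from 0.623 per Mb on chromosome 9 to 2.00 per Mb on chromosome 15. Over the 19 autosomes the densities of both classes had a Pearson r of -0.72 and a Spearman rho of -0.59. Chromosome 9, with the fewest other windows per Mb, had 0.308 members per Mb, the second most, and chromosome 15, with the most other windows, had 0.161. Relative to protein-coding genes, counted on the later assembly GRCm38 because none of mm9 was used, members ranged from 1.18 per 100 genes on the gene-rich chromosome 11 to 4.95 per 100 genes on chromosome 13. The number of members followed the span of the chromosome more closely (Pearson r = 0.76, Spearman rho = 0.68, 19 autosomes) than the number of genes (0.41 and 0.44). For the other windows the values were 0.42 and 0.54 with span, and 0.44 and 0.57 with genes. Chromosomes share a single library here and span and gene number are themselves related, so these values are a description too.

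Many members stood next to other members. Going along each chromosome, the 560 members had 1104 neighbouring places, and 592 of these were occupied by another member (53.6%, 50.6% to 56.6%). Every such place lies across a distance of more than 500 kb, so its window already meets the rule on one side, and the share of members in the whole list is no reference for it. Across the same kind of distance, 512 of the 1172 places facing a window that was not a member held a member (43.7%). Both shares rest on the distances that chose the members and are a description. Consecutive members formed 264 chains, of which 135 were single members and 129 held 2 or more, with 425 members or 75.9% of all. Chains of 5 or more numbered 19 and held 124 members.

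The longest chain was of 10 members on chromosome 7, from 105563976 to 120882875, in which consecutive windows lay 1.70 Mb apart on average. A chain of 9 members on chromosome 5 began at 3613501 and ended at 18164675, and another of 9 on chromosome 9 began at 82868976 and ended at 96878050, with average steps of 1.82 and 1.75 Mb. Over these stretches of 15.3, 14.6 and 14.0 Mb no 2 windows of the map lay within 500 kb of each other. These chains were picked for their length after their values were seen.

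The 512 remaining neighbours, which were not members, were sorted by their own grouping. When windows separated by at most 10 kb were joined into groups, 418 of the 512 stood alone at that scale, 72 belonged to a pair, 15 to a group of 3 to 5 windows and 7 to a run of more than 5. Lone windows were 81.6% of these neighbours and 69.5% of all 2623 other windows. Only the outer windows of a group can face a member, so the groups themselves were counted next. A member stood beside 418 of the 1823 non-isolated single windows (22.9%, 21.0% to 24.9%), 60 of the 210 pairs (28.6%, 22.6% to 35.2%) and 15 of the 63 groups of 3 to 5 (23.8%, 14.0% to 36.2%). These intervals overlap, which does not decide whether the shares differ, and a difference between lone and grouped windows was not tested. A pair can have a member on both sides, as 12 did, whereas a lone window that is not itself a member has at most one.

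A member stood beside 5 of the 8 runs of more than 5 windows (62.5%, 24.5% to 91.5%). This interval is wide, and a difference from the smaller groups was not tested. One member beside a run, at chr8:125365026-125365225, lay 611 kb and 698 kb from its neighbours. It had 81 windows between 0.5 and 1 Mb away, the most of any member. Its neighbour on the higher side was the first window of the run of 74. It was singled out after its value was seen. The median member had 1 window in that range.

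Isolation at 500 kb was not limited to single windows. Counting each group joined at 10 kb as one place, 605 of 2664 places lay more than 500 kb from every other place. The members made up 560 of them, and 45 were groups of 2 or more windows that the rule leaves out because their own windows lie close together. Of these, 35 were pairs and 10 held 3 windows or more. The largest were a run of 17 windows at chr14:61552201-61581875, whose nearest outside window was 1618 kb away, a run of 14 at chr3:93007826-93023475, at 1315 kb, and a run of 7 at chr5:136099826-136104750, at 1167 kb.

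Beyond the 500 kb that the rule used, the number of windows around members was compared with that around the other windows. At 0.5 to 1 Mb away on either side both classes had a median of 1 window, with means of 1.31 and 2.16. The highest single counts there, which raise these means, were 81 for a member and 65 for another window. No window lay in that range for 40.9% of members and 28.3% of the other windows. Between 1 and 5 Mb away on either side, members had a median of 8 windows (quartiles 5 and 12, 505 members far enough from the chromosome ends) and the other windows a median of 10 (quartiles 7 and 17, 2183 windows). The means were 9.62 and 13.4, and the quartile ranges overlap widely. At 1 to 2 Mb the medians were 2 and 3 windows, and 23.4% of members had none there, against 12.2% of the other windows. At 2 to 5 Mb the medians were 6 and 7, and at 5 to 10 Mb they were 10 and 12, with means of 12.8 and 13.4. Per Mb, the means differed most at 1 to 2 Mb and least at 5 to 10 Mb, while the medians were equal at 0.5 to 1 Mb. The ranges do not compare the same windows, since those too near a chromosome end were left out. At 0.5 to 1 Mb there were 543 members and 2509 other windows, and at 5 to 10 Mb 454 and 1960. Windows in a dense block each count the same surroundings, so the values of the other windows repeat one another.

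**Figure D4:**
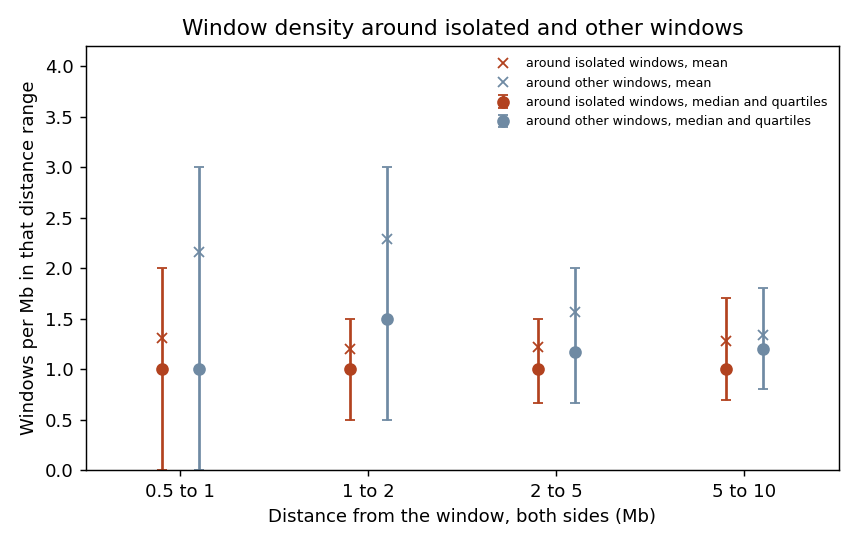
Windows per Mb (vertical axis) in 4 distance ranges on both sides of isolated and other windows (horizontal axis, Mb); dots with bars are medians with quartiles and crosses are means. Around isolated windows the mean is 1.31, 1.20, 1.22 and 1.28 per Mb from the nearest range to the farthest, and around other windows it is 2.16, 2.29, 1.57 and 1.34. In the nearest range the highest single counts, which raise the means, are 81 around isolated windows and 65 around others.

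The difference at 1 to 5 Mb was then taken within each chromosome, since the isolated share was higher on sparse chromosomes. The median around members was lower than around the other windows on 15 of the 19 autosomes, equal on chromosome 7, and higher on chromosomes 8, 13 and 18. It was widest on chromosome 15, with 12 windows around members and 25 around the others. Chromosome 16 followed with 10 and 17, and chromosomes 2 and 4 had 8 and 13, and 9 and 14. Several of the 15 differed little: chromosomes 3 and 14 had 7 and 8 each, chromosome 6 had 8 and 9, and chromosome 12 had 9 and 10. On chromosome 18 the order was turned, with 9 around members and 5 around the others. The number of members behind these medians was from 13 on chromosome 16 to 46 on chromosome 1.

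Along the chromosomes, members were spread more evenly than the other windows, but the rule itself works toward this. Members must lie more than 500 kb apart, and windows that cluster fall in the other class, so the spread is a description. Each span from first to last window was cut into 5 equal parts, counted from the centromere, which lies at the low-coordinate end of mouse autosomes. The parts held 123, 102, 106, 110 and 119 members, so that each had between 18.2% and 21.96% of them. The other windows numbered 479, 377, 485, 519 and 763, with 29.1% in the part nearest the distal telomere. The share of windows that were isolated was therefore lowest in that part, at 13.5% (11.3% to 15.9%) of 882 windows. In the part nearest the centromere it was 20.4% (17.3% to 23.9%) of 602. Member numbers were close in the distal and centromere-side parts, at 119 and 123. The lower share thus mostly restates the larger window count of the distal part and is a description. Without the 8 runs of more than 5 windows these shares were 14.9% and 20.7%, and with 1 window kept for each group joined at 10 kb they were 16.9% and 24.3%.

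**Figure D5:**
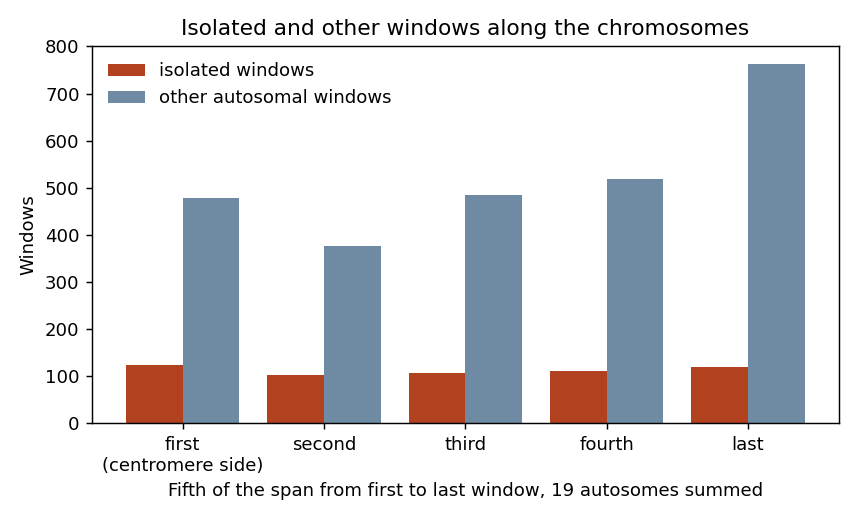
Number of isolated and other windows (vertical axis) in 5 equal parts of the span from first to last window, summed over 19 autosomes, from the centromere side to the distal end (horizontal axis). Isolated windows stay between 102 and 123 per part, while other windows reach 763 in the last.

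By chromosome the picture was mixed. The distal part held more members than the centromere-side part on 8 autosomes, fewer on 6 and as many on 5. For the other windows it held more on 12 and fewer on 7. The even numbers of members and the distal excess of the other windows are thus sums over chromosomes that leaned in either direction. The chromosomes contributed unequally to that excess. Chromosome 8 had 21 other windows in the centromere-side part and 127 in the distal part, and chromosome 4 had 20 and 86. Among the 7 with fewer, chromosome 14 had 41 and 7.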

How the data were processed

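ERRα ChIP-seq of C2C12 myotubes over-expressing PGC-1α gave 1 immunoprecipitated and 1 input library, grouped by sample titles. The submitters' processing notes name Bowtie 0.12.7 and the build mm9; neither peak caller nor threshold is named there or in the labels. The deposited list has 3 columns (chromosome, start, end), with all starts on whole multiples of 25 bp; positions were made by the authors, and no value per window is given.

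Members were found from distances between window starts on the same autosome, the first and last window of a chromosome counting with their one neighbour. Members and lists were chosen with earlier results of these data known. Windows planned for naming were the 10 most remote, and the 3 on either side of the limit. The member with the largest one-sided distance, the most crowded member, the longest chains and the largest isolated groups were named in addition, picked on their values. Neither sequence nor annotation of mm9 was used here, so start sites, gene features, 8 gene lists, motifs, base composition, repeats and genes around windows were not analysed here, and no sequence is printed. RefSeq genes of GRCm38 were used for counts per chromosome only. Surroundings, chains, neighbours, groups and the 5 parts of the span were added after the data were seen. Distance ranges left out windows whose range passed the first or last window. The calls were tested on simulated windows. Python 3.11.15, numpy 2.4.6, pandas 2.3.3, scipy 1.17.1 and matplotlib 3.10.9 were used.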

Additional observations from a re-analysis of the deposited data

How the results depend on the processing

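Of 41 values recomputed under alternatives, 28 stayed within 1.5 times the reported count or span share, or within the 95% interval of the reported share or median, and 13 moved. Not all of them were free to move, so the tally is no measure of robustness. Measuring between window edges changes each distance by 200 bp only. Leaving out long runs, or keeping 1 window of each group, kept the original isolated calls. By its construction the distance limit sets the number of members, which was 991 at 250 kb and 237 at 1 Mb; the share of the span nearest to them was 26.4% at 1 Mb. At 250 kb, 62.8% of neighbouring places held another member, and the isolated share was 33.7% in the centromere-side part and 27.6% in the distal part. At 1 Mb these values were 41.4%, 8.31% and 5.90%, and the median number of windows 1 to 5 Mb from members was 7. With 1 window of each group joined at 10 kb, that median was 7 too, and the isolated shares were 24.3% and 16.9%. The order of members below other windows at 1 to 5 Mb was the same in each alternative run. So was that of the distal below the centromere-side part. The intervals of the 2 parts overlapped at 250 kb (29.9% to 37.7% and 24.6% to 30.6%). They also overlapped at 1 Mb (6.23% to 10.8% and 4.43% to 7.66%), and they did not at 500 kb. Overlap or its absence does not decide whether the parts differ, which was not tested. Both shares rest on the distances that chose the members. Measuring between window edges left the number at 560, leaving out end windows gave 544, and counting groups as places gave 605. Alternatives for results that need the mm9 sequence or annotation were not run. No paired analysis was possible because only 1 immunoprecipitate and 1 input exist here, and leaving out a replicate was likewise impossible.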
